A study of Mus musculus with 57 samples.

Results

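The 6 genes described here sit together on mouse chromosome 3: 4 genes of G protein-coupled receptors (P2ry12, P2ry13, P2ry14 and Gpr171), the large gene Med12l that surrounds them, and Igsf10 at its far end. They were picked by symbol from a list drawn up with earlier results of these data known, and all 6 were found in both deposited count tables. The tables hold 50565 genes for a comparison of the sexes (the sex experiment) and 53278 genes for a comparison of treatment with lipopolysaccharide (the LPS experiment). All 6 passed the filter on low counts in both tables, where 31709 and 15857 genes were tested.

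CD11b-positive cells, labelled as microglia, were taken from the brains of P2RY12-deficient mice (KO) and their wild-type littermates (WT), and their RNA was sequenced. For the sex comparison the adult males were 4 WT and 5 KO, and the adult females were likewise 4 WT and 5 KO. For the LPS comparison there were 8 WT ns and 9 WT LPS libraries by label, and 8 each of KO ns and KO LPS, with LPS given into the peritoneum at 1 mg/kg. Libraries WT LPS 8 and 9 differed by little more than sampling noise and were summed as 1 sample. LPS is a cell-wall component of bacteria that provokes inflammation, the labels do not define ns, and they give no sex for these animals. The sources used here do not describe the allele of the KO, so the exons that were removed are not known here. They also do not say how many animals each library of the LPS experiment came from, and p-values there measure the spread between libraries.

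P2RY12 and P2RY13 are receptors for extracellular ADP that couple to inhibitory G proteins, and P2RY12 is a standard surface marker of resting microglia, where it directs processes toward sites that release nucleotides. P2RY14 responds to UDP-sugars such as UDP-glucose, and GPR171 is a related receptor, described mainly on lymphocytes and neurons, for a peptide of the proSAAS precursor. MED12L is a relative of MED12, a subunit of the kinase module of the Mediator complex that links transcription factors to RNA polymerase II, and IGSF10 is a secreted protein of the immunoglobulin superfamily.

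In the coordinates of the sex table (GRCm39), Med12l spans chr3:58912820-59225867 on the plus strand, 313048 bases in all. Every receptor gene lies inside it on the opposite strand: Gpr171 at chr3:59003869-59009242, P2ry14 at chr3:59022044-59060913, P2ry13 at chr3:59115313-59118303 and P2ry12 at chr3:59123692-59170408. P2ry12 and P2ry13 are the closest pair, 5388 bases apart. Igsf10, at chr3:59224156-59256836, also runs on the minus strand and overlaps the last 1712 bases of Med12l. In the GENCODE annotation of GRCm38, Igsf10 shares 1948 exonic bases with Med12l and P2ry12 shares 9. The receptor genes otherwise lie in Med12l introns.

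Since P2ry12 and P2ry13 both fell in KO in the sex experiment and with LPS, the 250 bases before their starts are shown (RefSeq, GRCm38.p6, minus strand, chr3:59262986-59263235 and chr3:59210883-59211132). Capitals mark AGGAAG, the core of sites bound by ETS factors such as PU.1, a transcription factor that defines the myeloid lineage.
P2ry12: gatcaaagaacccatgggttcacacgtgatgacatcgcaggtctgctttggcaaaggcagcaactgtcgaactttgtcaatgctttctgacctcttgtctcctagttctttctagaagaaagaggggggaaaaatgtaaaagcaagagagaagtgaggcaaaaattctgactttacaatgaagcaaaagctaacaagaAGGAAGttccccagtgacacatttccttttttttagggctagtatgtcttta
P2ry13: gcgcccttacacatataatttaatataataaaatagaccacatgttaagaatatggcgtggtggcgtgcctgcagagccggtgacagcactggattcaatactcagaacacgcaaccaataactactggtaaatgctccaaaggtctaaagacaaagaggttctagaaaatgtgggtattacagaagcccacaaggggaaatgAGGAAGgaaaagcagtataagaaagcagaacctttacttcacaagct
Each of these windows held 1 AGGAAG on either strand, 52 bases before the start in P2ry12 and 47 bases before it in P2ry13. The same letters occur in 29.6% of 32536 RefSeq windows of this length, so they do not set these genes apart. The MEF2-type letters CTANNNNTA stood 19 bases before the start of P2ry12 and 128 before that of P2ry13, and 18.9% of windows hold them. CACGTG (E-box) stood 228 bases before the start of P2ry12, and 6.04% of windows hold it. TGANTCA (AP-1), TGACGTCA (CRE), GAAANNGAA (interferon response) and GGANTTTCC (NF-kappaB-type) were in neither window, and 6.73%, 1.56%, 7.15% and 1.07% of windows hold them. None of the motifs overlapped another in these windows. Of the 4 P2ry14 windows, 1 held AGGAAG, 20 bases before the start, and the windows of Med12l and Igsf10 held none.

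Levels are given in CPM, the count of a gene over the library total after TMM scaling, a factor that evens out differences in composition between libraries, and fold changes as log2 values with their standard error (SE). A gene was called where its edgeR p-value, adjusted over all genes tested, was under 0.05. Library totals ranged from 58.5 M to 318.5 M counts (M, 1e6) for the 18 animals of the sex comparison, and from 15.9 M to 168.4 M for the 33 libraries of the LPS comparison. The TMM factor lay between 0.860 and 1.08 in the sex experiment and between 0.675 and 1.12 in the LPS experiment. Summed over the microglial markers found (9 in the sex table, without P2ry12), levels were 22566 to 36850 CPM in every animal, and the 4 groups overlapped. No microglial marker was at 0 in any group. Neutrophil markers (6 genes) summed to 40498 CPM in male WT 5 and 23904 in female WT 2, against 612 to 6439 in the other 16 animals, and their part in the results was not tested beyond leaving those 2 animals out. Markers of border macrophages (6 genes) summed to 206 to 1150 CPM and those of monocytes (4 genes) to 48.9 to 720 CPM, and the groups overlapped in both. Markers of neurons (4 genes) summed to at most 16.0 CPM, and those of oligodendrocytes (4 genes) to at most 138 CPM, in any animal. In the LPS experiment, the WT libraries numbered 2 in their names went against their labels. Saa3, a gene that LPS induces, was at 1779 and 2489 CPM in the 2 libraries labelled WT ns with that number (WT ns 1 and WT ns 5), against 1.52 to 64.3 in the other 6. It was at 1.59 and 3.21 CPM in the 2 libraries labelled WT LPS with that number (WT LPS 1 and WT LPS 6), against 1416 to 9711 in the other 6. The KO libraries numbered 2 lay with their own groups. Values are therefore given for all libraries by label and without number 2 in any group, and each WT library numbered 2 is called by its label only.

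In both sexes P2ry12, P2ry13 and Med12l fell in KO animals, and Igsf10 was called higher with the sexes averaged. P2ry12, the targeted gene, was at 5927, 5047, 5406 and 3195 CPM in male WT animals 1, 3, 4 and 5. It was at 504, 439, 452, 526.2 and 489 CPM in male KO animals 1 to 5. In females it was at 4879, 3007, 4358 and 4826 CPM in WT animals 1, 2, 3 and 5, and at 341, 309, 430, 362 and 438 CPM in KO animals 1 to 5. Every KO animal lay far below every WT animal of either sex, and the KO mean was 9.85% of the WT mean in males and 8.81% in females. The log2 fold change was -3.34 ± 0.17 for males (SE, edgeR adjusted p = 5.18e-10) and -3.50 ± 0.17 for females (adjusted p = 2.40e-10). Reads of the gene thus remained in every KO animal, 25667 to 116644 of them.

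P2ry13, whose gene was not targeted, was at 1963, 1975, 2034 and 1204 CPM in the 4 male WT animals and at 439, 643, 469, 308 and 377 CPM in the 5 male KO animals. In females it was at 1512, 1170, 1576 and 1751 CPM in WT and at 450, 410, 376, 434 and 321 CPM in KO. The groups did not overlap in either sex. The KO mean was 24.9% of the WT mean in males and 26.5% in females, so about a factor of 4 was lost where P2ry12 lost a factor of about 10. The log2 fold change was -2.004 ± 0.19 for males (edgeR adjusted p = 4.42e-05) and -1.91 ± 0.19 for the females (adjusted p = 8.67e-05). In males the call was lost when only the 2 groups compared were fitted (adjusted p = 0.0615), with the fold change then at -2.01.

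P2ry14 and Gpr171 were near the bottom of the measured range. P2ry14 was at 1.63, 2.12, 2.66 and 11.7 CPM in male WT and at 1.56 to 2.36 CPM in male KO. In females it was at 1.71, 7.67, 1.97 and 2.56 CPM in WT and at 0.773 to 3.96 CPM in KO. The WT animals that stood highest, male WT 5 and female WT 2, were those with the most neutrophil marker counts, and they also had the lowest P2ry12, P2ry13 and Med12l of their groups. In bulk samples fewer cells of a type and less RNA per cell cannot be told apart. Averaged over the sexes, P2ry14 had a log2 fold change of -1.02 ± 0.42 (adjusted p = 0.510), and without those 2 animals of -0.11 ± 0.24 (adjusted p = 1.000).

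Gpr171 was at 0.952 to 1.88 CPM in male WT and 0.951 to 1.29 CPM in male KO, and at 1.08 to 3.25 CPM in female WT and 1.23 to 5.48 CPM in female KO. The groups overlapped in both sexes, and female KO 5 was highest. The sum of 7 markers of T and NK cells was also highest in female KO 5, at 82.9 CPM against 14.7 to 45.0 CPM in the other 17 animals. The log2 fold change was -0.51 ± 0.37 for males (adjusted p = 0.841) and 0.42 ± 0.37 for the females (adjusted p = 1.000).

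**Figure D1:**
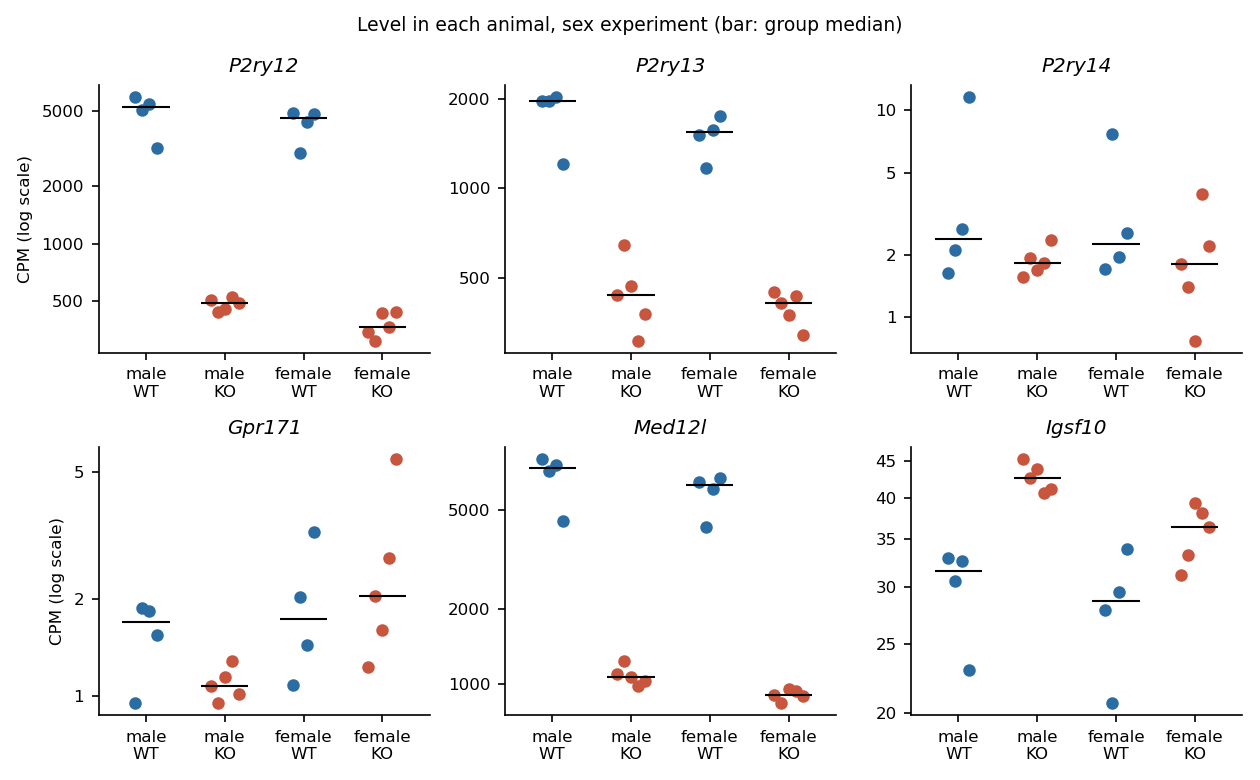
Level of each gene in CPM (log axis) in every animal of the sex experiment, by sex and genotype, with a bar at each group median. P2ry12, P2ry13 and Med12l separate WT from KO with no overlap, Igsf10 lies higher in male KO and overlaps in females, and P2ry14 and Gpr171 overlap.

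The deposited Med12l count fell as well, but it was made up mostly of reads of the genes inside it. Med12l was at 8029, 7155, 7577 and 4524 CPM in male WT and at 1100, 1234, 1066, 984 and 1026 CPM in male KO. In females it was at 6506, 4271, 6058 and 6727 CPM in WT and at 902, 839, 955, 940 and 897 CPM in KO. No KO animal reached any WT animal, and the log2 fold change was -2.66 ± 0.15 for males (edgeR adjusted p = 1.58e-09) and -2.70 ± 0.15 for the females (adjusted p = 1.20e-09).

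In every animal the Med12l count exceeded the summed counts of the 7 genes of the table that lie inside its span. Counts of the 4 receptor genes alone came to 97.5% to 98.3% of that count in WT and 84.6% to 88.1% in KO. What was left after subtracting the 7 inside genes was at 136, 128, 132 and 111 CPM in male WT and at 154, 149, 143, 146 and 156 CPM in male KO. In females the remainder was at 111, 83.7, 120 and 144 CPM in WT and at 107, 116, 146, 136 and 130 CPM in KO. The fall of Med12l was thus not seen in its remainder, for which no difference was called: the log2 fold change was 0.24 ± 0.12 for males (adjusted p = 0.719), 0.15 ± 0.12 for the females (adjusted p = 1.000) and 0.19 ± 0.08 averaged over the sexes (adjusted p = 0.52). The 95% interval of the averaged value ran from 0.02 to 0.36. The length listed for Med12l in the sex table was its whole span, so the remainder may include intron reads.

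**Figure D2:**
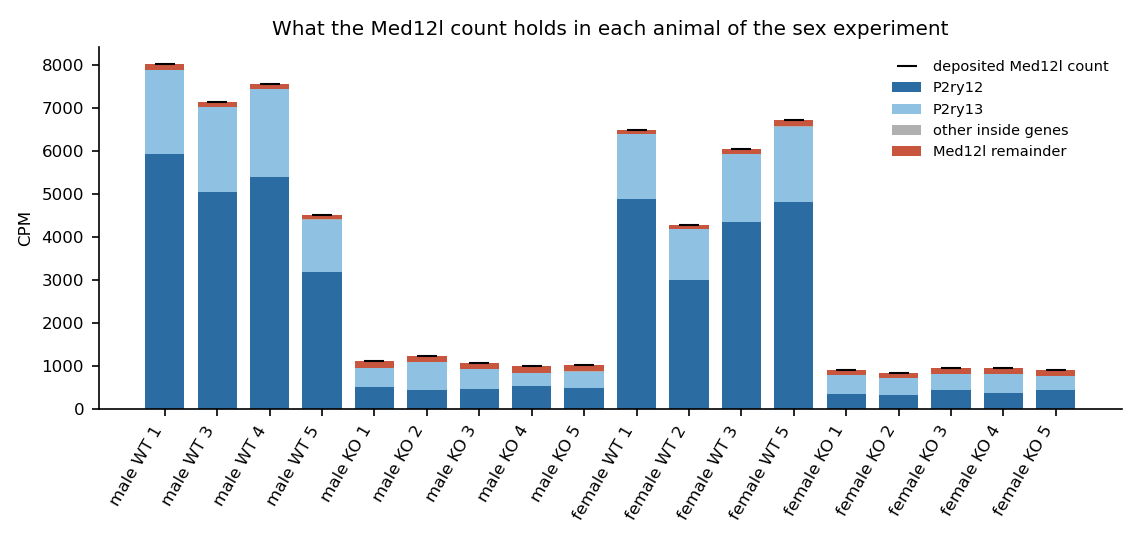
Deposited Med12l count of each animal in CPM (black line), with stacked bars for P2ry12, P2ry13, the other genes inside Med12l and the remainder. Nearly the whole bar is P2ry12 and P2ry13 in WT, and the remainder keeps a similar height in all 18 animals, 83.7 to 156 CPM.

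Igsf10 went the other way. It was at 33.01, 30.6, 32.6 and 23.004 CPM in male WT and at 45.3, 42.6, 43.8, 40.7 and 41.2 CPM in male KO, with no overlap. In females it was at 27.9, 20.7, 29.5 and 33.9 CPM in WT and at 31.3, 33.2, 39.4, 38.1 and 36.4 CPM in KO, where the lowest KO animals lay below the highest WT animal. The KO mean was 143% of the WT mean in males and 127% in females. The log2 fold change was 0.52 ± 0.12 for males (adjusted p = 0.388) and 0.35 ± 0.12 for the females (adjusted p = 0.551), and neither was called. Averaged over the sexes it was 0.43 ± 0.09 and was called (edgeR adjusted p = 0.0255).

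That call rests on a narrow margin. It was lost when any 1 of 8 animals was left out (male WT 3, male KO 1, 2, 3 and 5, female WT 1, female KO 4 and 5), with adjusted p-values of at most 0.0631 and fold changes of 0.32 to 0.49 over all alternatives. Male WT 5 and female WT 2, the animals with the most neutrophil marker counts, were also the lowest for Igsf10 in their groups. Without both the averaged fold change was 0.32 ± 0.06 (adjusted p = 0.00626). The overlap of Igsf10 with the end of Med12l may let the counts of the pair share reads, and its part in this difference was not tested. The length listed for Igsf10 in the sex table was its whole span, 32681 bases, against 10.15 kb of exons in GRCm38. Intron reads may thus be part of its count there.

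Among the 6 genes, 3 were called in males (3 lower), where 0.00946% of the 31709 genes tested were called: the 3 calls of the male comparison were P2ry12, P2ry13 and Med12l. In females the same 3 genes were called, against 0.164% of all genes. Averaged over the sexes 4 were called, 3 lower and Igsf10 higher, against 0.432%. For the 6 genes the median log2 fold change was -1.64 for males, -1.34 for females and -1.49 averaged, and that of all genes was -0.01 in each. These counts and medians include P2ry12, the targeted gene, and Med12l, whose count was mostly reads of P2ry12 and P2ry13. They are thus not independent results. Apart from P2ry12 and Med12l, P2ry13 was the only one of the 6 called lower. None of the 6 was called for a difference of the genotype effect between the sexes, where 0.0% of genes were called by edgeR and 879 had an unadjusted p under 0.05. That difference (female minus male) was -0.16 ± 0.23 for P2ry12 (95% interval -0.63 to 0.31), 0.09 ± 0.27 for P2ry13 (-0.47 to 0.65) and 0.93 ± 0.52 for Gpr171 (-0.15 to 2.02). Sex differences within these intervals were thus not excluded. Between female and male WT, 0 of the 6 were called, against 0.0725% of all genes.

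In the LPS experiment both the loss of P2RY12 and LPS went with lower P2ry12, by similar factors in each state of the other. Without number 2, P2ry12 ranged from 3512 to 5401 CPM (median 4244) in WT ns and from 624 to 1242 CPM (median 653) in KO ns. After LPS it ranged from 400 to 1062 CPM (median 506) in WT and from 84.2 to 111 CPM (median 98.3) in KO. The 4 groups of 6 overlapped only between KO ns and WT LPS. The libraries numbered 2 were at 481 and 927 CPM in those labelled WT ns, 4457 and 12143 CPM in those labelled WT LPS, 585 and 744 CPM in KO ns, and 95.8 and 154 CPM in KO LPS. Those labelled WT ns thus lay in the range of the other WT LPS libraries, and those labelled WT LPS in or above the range of the other WT ns libraries.

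Without number 2, the KO mean of P2ry12 was 16.95% of WT at ns and 16.8% after LPS, with log2 fold changes of -2.57 ± 0.24 (edgeR adjusted p = 3.31e-06) and -2.57 ± 0.24 (adjusted p = 6.74e-06). LPS left 13.0% of the ns mean in WT and 12.9% in KO, with log2 fold changes of -2.94 ± 0.25 (adjusted p = 1.02e-08) and -2.95 ± 0.25 (adjusted p = 1.10e-08). The difference of the LPS effect between genotypes was -0.01 ± 0.32 with a 95% interval of -0.67 to 0.66. With all libraries by label, the KO difference was -2.28 ± 0.59 at ns (adjusted p = 0.160) and -4.51 ± 0.66 after LPS (adjusted p = 0.00060). The LPS difference by label was -0.56 ± 0.57 in WT (adjusted p = 0.566) and -2.79 ± 0.60 in KO (adjusted p = 0.00166). By label, DESeq2 called P2ry12 at ns (adjusted p = 0.0111), and no alternative that kept number 2 called it for LPS in WT (adjusted p 0.329 to 0.989).

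P2ry13 fell with LPS in both genotypes without number 2, and its differences between KO and WT were not called. Without number 2 it ranged from 1153 to 1793 CPM (median 1374) in WT ns, 278 to 1512 CPM (median 399) in KO ns, 236 to 1082 CPM (median 399) in WT LPS and 146 to 240 CPM (median 217) in KO LPS. KO ns 6 was the one KO library at the WT level, at 1512 CPM, and 5 of 6 KO libraries lay below all WT libraries. The libraries numbered 2 were at 401 and 852 CPM when labelled WT ns, at 1327 and 4158 CPM when labelled WT LPS, at 365 and 755 CPM in KO ns and at 177 and 593 CPM in KO LPS.

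Without number 2, the log2 fold change of P2ry13 in KO was -1.41 ± 0.37 at ns (adjusted p = 0.287) and -1.17 ± 0.37 after LPS (adjusted p = 0.512), and neither was called. When KO ns 6 was left out too, the value at ns was -1.92 and was called (adjusted p = 0.00306), and DESeq2 called it with KO ns 6 kept (adjusted p = 0.0392). KO ns 6 also had the most neutrophil marker counts of the KO libraries, 9805 CPM against 236 to 5734 CPM in the 28 samples other than WT ns 3, WT ns 8, WT LPS 7 and itself. Its 10 microglial markers also summed highest, 52283 CPM against 33231 to 38619 CPM in the other KO ns libraries, and the part of either in its P2ry13 level was not tested. The TMM factor of KO ns 6 was 0.733, against 1.01 to 1.12 in the other KO ns libraries. This low factor raises all its CPM values, both marker sums among them, and its microglial sum is not shown to be high over plain library totals. Over the plain library total its P2ry13 was at 1108 CPM. With LPS P2ry13 had log2 fold changes of -1.61 ± 0.37 in WT (adjusted p = 0.00173) and -1.37 ± 0.37 in KO (adjusted p = 0.00774), the latter -0.87 without KO ns 6 (adjusted p = 0.0209). With all libraries by label, the values were -1.25 ± 0.45 for KO at ns (adjusted p = 0.404), -1.95 ± 0.46 for KO after LPS (adjusted p = 0.0896), -0.39 ± 0.44 for LPS in WT (adjusted p = 0.614) and -1.09 ± 0.44 for LPS in KO (adjusted p = 0.0770), none of them called.

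P2ry14 was read by 14 to 252 counts per sample. Without number 2 it ranged from 1.49 to 6.12 CPM in WT ns, 0.537 to 7.35 CPM in KO ns, 0.714 to 2.88 CPM in WT LPS and 0.644 to 2.04 CPM in KO LPS. All groups overlapped. The WT libraries numbered 2 were at 0.750 and 3.31 CPM when labelled ns and at 1.78 and 17.6 CPM when labelled LPS. The highest WT ns values, 5.22 CPM in WT ns 3 and 6.12 CPM in WT ns 8, came with neutrophil marker sums of 13658 and 12750 CPM, and the highest KO ns value came from KO ns 6. The log2 fold changes of -0.86 ± 0.51 (KO at ns, adjusted p = 0.536), -0.19 ± 0.51 (KO after LPS, 0.916), -1.10 ± 0.51 (LPS in WT, 0.0923) and -0.43 ± 0.52 (LPS in KO, 0.577) were not called, and without KO ns 6 the values were -1.63, -0.24, -1.05 (called, adjusted p = 0.0269) and 0.34. With number 2 by label they were -0.74, -0.87, -0.03 and -0.17, also not called.

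Gpr171 was read by 0 to 187 counts per sample and was lowest in KO after LPS. Without number 2 it ranged from 1.10 to 1.75 CPM in WT ns, 0.557 to 3.64 CPM in KO ns, 0.680 to 2.11 CPM in WT LPS and 0.218 to 0.855 CPM in KO LPS. After LPS 5 of 6 KO libraries lay below all 6 WT libraries, and KO ns 6 was the highest KO ns library. Among the libraries numbered 2, KO LPS 1 had 0 reads of the gene, which allows up to 0.136 CPM (3 counts, counting error only), and KO LPS 5 had 2 reads, while those labelled WT LPS were at 2.16 and 5.63 CPM and those labelled WT ns at 0.309 and 2.88 CPM.

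With all libraries by label, the log2 fold change of Gpr171 in KO after LPS was -2.34 ± 0.48 (edgeR adjusted p = 0.0439). Leaving out number 2 gave -1.54 ± 0.41, not called (adjusted p = 0.274), although the gene was called with KO ns 6 also left out (-1.52, adjusted p = 0.0259) and by DESeq2 (adjusted p = 0.0369). LPS in KO gave -1.45 ± 0.48 by label (adjusted p = 0.0291) and -1.15 ± 0.41 without number 2 (adjusted p = 0.0380), and that call ended when KO ns 6 was also left out (-0.54, adjusted p = 0.187). LPS in WT gave 0.02 ± 0.39 without number 2 (adjusted p = 0.975). The difference of the LPS effect between genotypes was -1.17 ± 0.56 (95% interval -2.33 to -0.01, adjusted p = 0.457), so a difference between genotypes did not pass the test. Without number 2 the 7 T and NK cell markers summed to 15.9 to 38.7 CPM (median 23.5) in WT ns and 5.34 to 50.9 (median 12.3) in KO ns. After LPS they summed to 6.46 to 24.6 CPM (median 9.43) in WT and 3.34 to 12.6 (median 7.41) in KO. Their median was thus also lowest in KO LPS, but it was lower after LPS in WT too, where Gpr171 was not called. None of these markers was at 0 in a whole group, and their part in the Gpr171 levels was not tested. At ns the KO difference of Gpr171 was -0.37 ± 0.39 (adjusted p = 0.688).

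In this table Med12l was counted without the reads of the receptor genes: its level was 60.6 to 87.8 CPM (median 77.2) in WT ns, far under the sum of P2ry12 and P2ry13 in the same libraries. Without number 2, KO ns ranged from 56.2 to 105 CPM (median 83.3), WT LPS from 13.3 to 36.6 CPM (median 27.96) and KO LPS from 40.1 to 53.9 CPM (median 48.2). WT and KO overlapped at ns, and after LPS all 6 KO libraries lay above all 6 WT libraries. The libraries numbered 2 were at 36.8 and 42.4 CPM when labelled WT ns and at 71.1 and 75.8 CPM when labelled WT LPS.

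LPS lowered Med12l, with log2 fold changes of -1.49 ± 0.18 in WT (adjusted p = 1.29e-06) and -0.76 ± 0.17 in KO (adjusted p = 0.00205) without number 2. By label they were -0.78 ± 0.25 in WT (adjusted p = 0.117) and -0.79 ± 0.25 in KO (adjusted p = 0.0201). The KO difference without number 2 was 0.07 ± 0.17 at ns (adjusted p = 0.848) and 0.80 ± 0.18 after LPS, the second of which was not called by edgeR (adjusted p = 0.117) but was by DESeq2 (adjusted p = 0.00273). By label it was 0.33 ± 0.24 and 0.31 ± 0.24 (adjusted p = 0.749 and 0.858). The LPS effect differed between genotypes by 0.73 ± 0.25 without number 2 (adjusted p = 0.457) and by -0.01 ± 0.35 by label. The level of Med12l in KO relative to WT at ns, 106%, stands beside 15.9% and 15.4% in the male and female animals of the sex table, where the inside genes were part of its count.

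Igsf10 was lower in CPM than in the sex table and was read by 10 to 576 counts per sample. Without number 2 it ranged from 2.96 to 5.31 CPM (median 3.83) in WT ns, 1.29 to 2.64 CPM (median 2.29) in KO ns, 0.703 to 4.59 CPM (median 1.90) in WT LPS and 1.20 to 4.72 CPM (median 3.08) in KO LPS. At ns all 6 KO libraries lay below all 6 WT libraries, the opposite order to the sex experiment, and after LPS the groups overlapped. The WT libraries numbered 2 were at 2.74 and 4.91 CPM when labelled ns and at 3.44 and 3.597 CPM when labelled LPS. The log2 fold change in KO was -0.92 ± 0.35 at ns (adjusted p = 0.384) and 0.59 ± 0.35 after LPS (adjusted p = 0.727), not called. With number 2 by label it was -0.72 ± 0.34 and 0.61 ± 0.34 (adjusted p = 0.553 and 0.753).

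LPS lowered Igsf10 in WT without number 2 (-0.98 ± 0.35, adjusted p = 0.0315). That call was lost when 1 more library was left out in 7 of 24 cases, and by label the value was -0.69 ± 0.34 (adjusted p = 0.220). In KO the LPS difference was 0.53 ± 0.35 (adjusted p = 0.273). The LPS effects of the genotypes differed by 1.51 ± 0.49 (95% interval 0.49 to 2.52), with an adjusted p of 0.457.

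**Figure D3:**
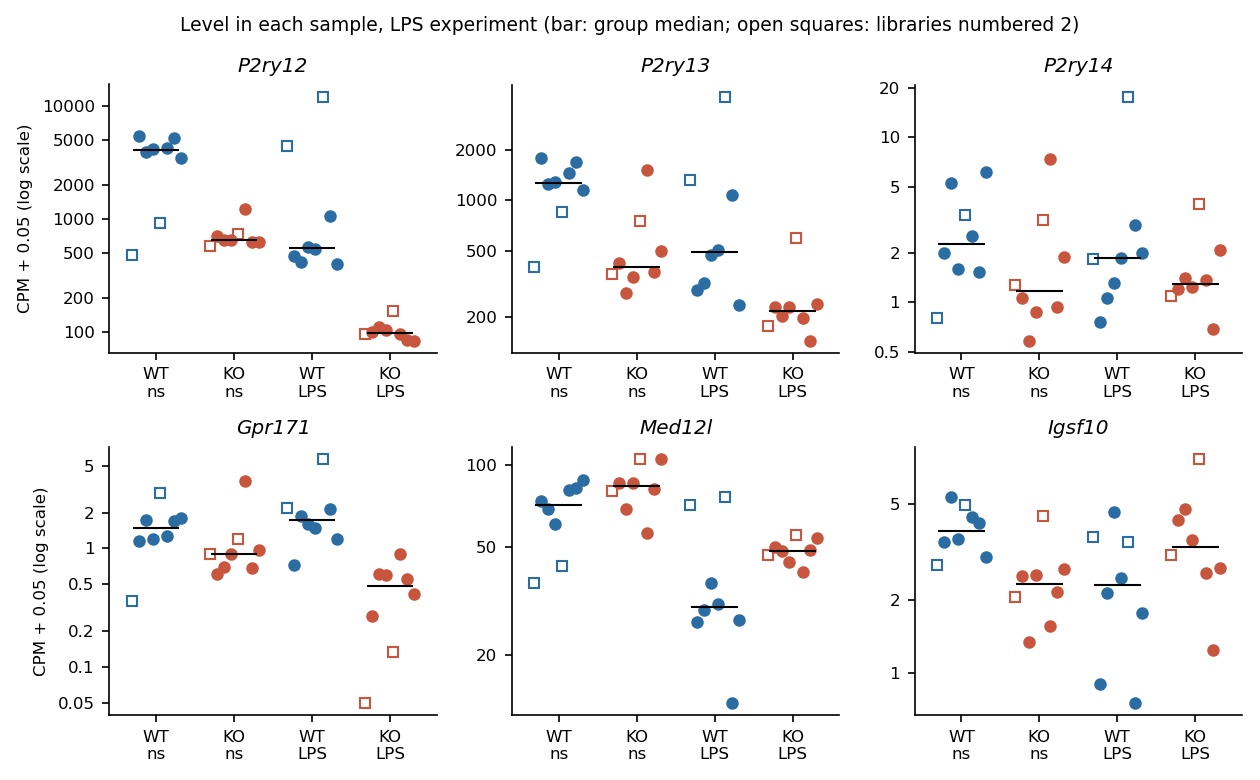
Level of each gene in the LPS experiment (CPM + 0.05, log axis) in every sample by genotype and label, with a bar at each group median and open squares for libraries numbered 2. In the WT groups the open squares of P2ry12 and Med12l lie nearer to the filled points of the other treatment than to those of their own label, and in KO after LPS all filled points of Med12l lie above those of WT.

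With all libraries by label, 0 of the 6 genes were called for KO at ns, against 0.114% of all 15857 genes (edgeR; 1360 with an unadjusted p under 0.05), and 2 were called lower for KO after LPS (P2ry12 and Gpr171), against 0.126%. For LPS in WT 0 were called, against 0.0% of all genes (3605 with an unadjusted p under 0.05), and for LPS in KO 3 were called lower (P2ry12, Gpr171 and Med12l), against 22.3%. Without number 2, P2ry12 alone was called for KO at ns, against 0.0822%, and for KO after LPS, against 0.0885%. For LPS 4 of the 6 were called lower in WT (P2ry12, P2ry13, Med12l and Igsf10), against 36.3% of all genes, and 4 in KO (P2ry12, P2ry13, Gpr171 and Med12l), against 29.3%. None of the 6 was called for a difference of the LPS effect between genotypes, where 0.0% of genes were called both by label (1698 with an unadjusted p under 0.05) and without number 2 (1574). The comparisons of KO with WT at ns and of LPS with ns in WT share the WT ns libraries, and each is given by its own values. Without number 2 the median log2 fold change of the 6 genes was -0.89 for KO at ns, -0.68 for KO after LPS, -1.29 for LPS in WT and -0.95 for LPS in KO, beside -0.04, -0.01, -0.01 and -0.05 for all genes.

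**Figure D4:**
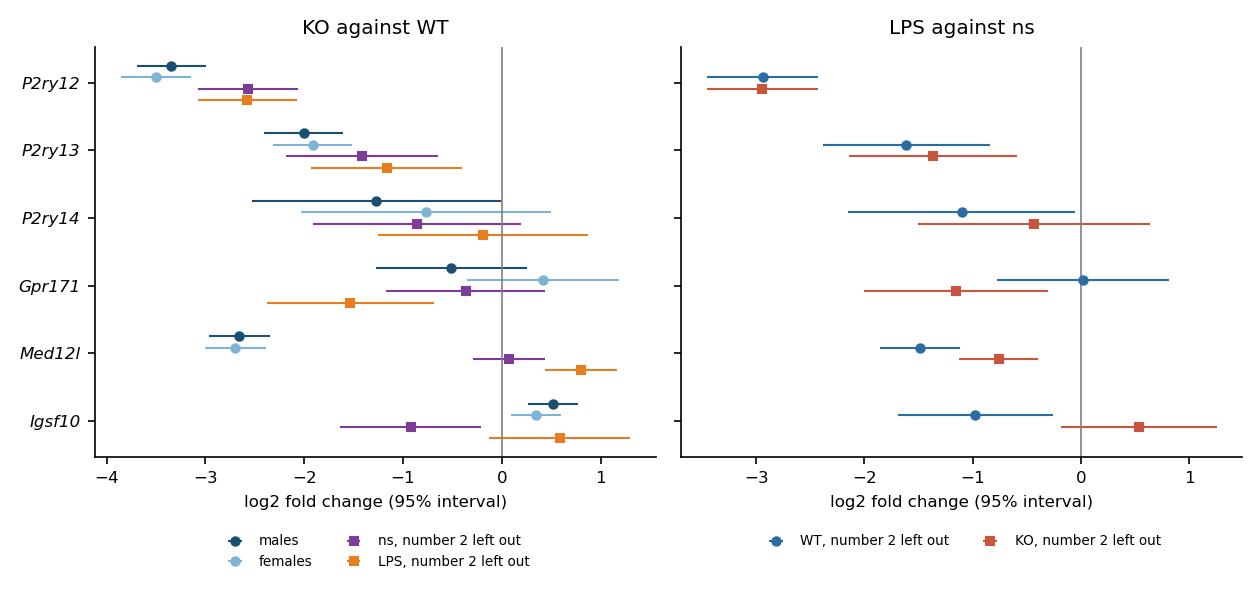
Log2 fold changes with 95% intervals of each gene for KO against WT (left: males, females, ns and LPS) and for LPS against ns (right: WT and KO), the LPS experiment without libraries numbered 2. The intervals of P2ry12 and P2ry13 lie below 0 in all 6 comparisons, and Med12l is lower in KO only in the sex table, whose count includes the genes inside it.

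P2ry12 and P2ry13 did not change by the same factor. P2ry12 is the targeted gene, so for KO against WT the part of the allele itself in this cannot be told apart. The ratio of P2ry13 to P2ry12 counts needs no scaling between libraries. It was 0.331 to 0.391 in male WT and 0.585 to 1.47 in male KO, and 0.310 to 0.389 in female WT and 0.734 to 1.33 in female KO, with no overlap. The mean log2 ratio, computed from CPM + 0.5, was higher in KO by 1.29 in males and 1.58 in females (exact permutation test, two-sided, p = 0.0159 in each, the smallest it can give with 4 against 5, and 0.0238 adjusted over 6 comparisons).

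In the LPS experiment without number 2 the ratio was 0.306 to 0.341 in WT ns, 0.423 to 1.22 in KO ns, 0.590 to 1.02 in WT LPS and 1.70 to 2.85 in KO LPS, where the libraries numbered 2 had 1.85 and 3.85. The ratio was thus higher in KO and after LPS. In the LPS comparisons within a genotype, both sides carry the same allele of P2ry12. The log2 ratio was higher by 1.01 for KO at ns, 1.45 for KO after LPS, 1.26 for LPS in WT and 1.70 for LPS in KO, each with the smallest exact permutation p that 6 against 6 allows (0.00216, also when adjusted). With number 2 by label the differences were 0.72 (p = 0.0298), 1.85 (p = 0.000155), 0.58 (p = 0.104) and 1.71 (p = 0.000155), by the same exact permutation test. The libraries labelled WT ns and numbered 2 had ratios of 0.835 and 0.919, and those labelled WT LPS had 0.298 and 0.342.

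**Figure D5:**
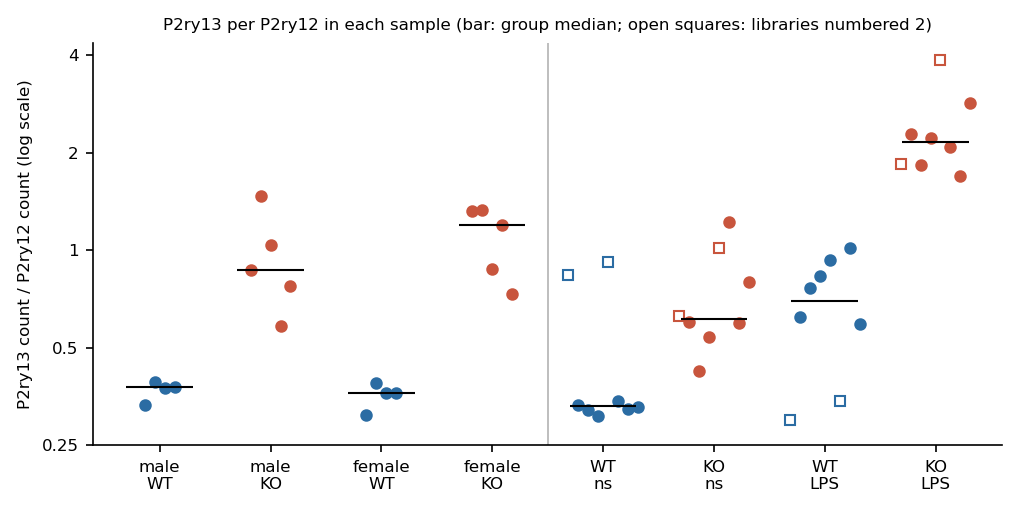
Ratio of P2ry13 to P2ry12 counts (log axis) in every sample of both experiments, with a bar at each group median and open squares for libraries numbered 2. WT animals of the sex experiment lie at 0.310 to 0.391, and KO LPS libraries reach 3.85.

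Per exonic kilobase, which allows levels to be compared between genes, P2ry12 led the locus in WT ns without number 2 at 1741 ± 293 CPM per kb (SD, n = 6), and P2ry13 followed at 571 ± 102. Med12l was at 5.92 ± 0.77, Gpr171 at 0.641 ± 0.136, Igsf10 at 0.389 ± 0.082 and P2ry14 at 0.283 ± 0.183 CPM per kb. The ranges of Igsf10 (0.291 to 0.523) and P2ry14 (0.135 to 0.553) over these libraries overlapped. After LPS in KO the order of the leading pair was turned, with P2ry13 at 82.4 ± 13.8 and P2ry12 at 38.1 ± 4.2 CPM per kb. P2ry12 was divided by its full annotated exon length in KO too. The exons removed are not known here, so its level per kb in KO is uncertain. In WT LPS without number 2, P2ry13 was at 192 ± 123 and P2ry12 at 227 ± 97 CPM per kb. The ratio of P2ry13 to P2ry12 counts within these libraries was 0.590 to 1.02. P2ry12 was thus the higher in all of them but WT LPS 7.

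Levels of P2ry12 and P2ry13 followed different genes from animal to animal. Deviations of log2 CPM from the group mean were correlated over the 18 animals of the sex experiment, among 16007 genes that shared the same libraries. Those most like P2ry12 were Ctso (Pearson r 0.954), Qki (0.951) and Slc33a1 (0.946), and those most like P2ry13 were Zfp334 (0.820), Gm35522 (0.812) and Slamf9 (0.808). Between P2ry12 and P2ry13 r was 0.31, and between P2ry12 and P2ry14 it was -0.77, with male WT 5 and female WT 2 low in the first and high in the second. Most like P2ry14 were Rnf125 (0.974), Rnd1 (0.970) and 4933416M07Rik (0.969). Most like Gpr171 were Klrk1 (0.976), Eomes (0.969) and Serpinb6b (0.966), of which Klrk1 and Eomes are known from NK and T cells.

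Over the 24 samples of the LPS experiment without number 2, with group and library set removed, r between P2ry12 and P2ry13 was 0.92. KO ns 6 (1242 and 1512 CPM) and WT LPS 7 (1062 and 1082 CPM) stood highest of their groups in both genes. Their part in this r and in the genes named next was not tested. Those most like P2ry12 were Pja2 (0.972), Scamp1 (0.971) and Hltf (0.969). Those most like P2ry13 were Il18 (0.956), Cysltr1 (0.949) and Gpr34 (0.945), of which Gpr34 encodes another receptor of microglia. Those most like P2ry14 were Rev3l, 2310001H17Rik and Taldo1 (0.852, 0.849 and 0.834), and Gpr171 was under the level minimum.

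Other tested genes within 1 Mb of the locus were not called for KO, while a few farther out were. Of 42 genes within 1 Mb of Med12l, other than those inside it, 28 were tested in the first table and 5 in the second, and none was called for KO against WT in either, with or without number 2. Their median log2 fold change was -0.15 in the sex-averaged comparison, beside -0.01 for all genes. For LPS without number 2, all 5 rose in WT, where 36.3% of all genes were called: Serp1 by 1.90, Selenot by 0.79, Eif2a by 0.77, Siah2 by 0.58 and Tsc22d2 by 0.51 on the log2 scale. Serp1 (0.94) and Siah2 (0.48) rose in KO, where 29.3% of all genes were called. These encode proteins of the endoplasmic reticulum, translation and ubiquitination among others, and their direction was opposite to that of P2ry12. Farther out, between 1 and 25 Mb, 4 of 360 genes tested in the sex experiment were called higher in KO averaged over the sexes (among them 4930589L23Rik, Gm6204 and Rps23-ps1), beside 0.432% of all genes. Rps23-ps1 lies inside Gm5148, the fourth of them, and both had a log2 fold change of 0.40, so they may share reads and are uncertain as separate calls. In the LPS experiment Rxfp1, the relaxin receptor gene, was lower in KO at ns (-6.72 ± 0.51 without number 2) and after LPS (-3.73 ± 0.57), Ankub1 was higher at ns (2.44 ± 0.46) and Tdo2 lower after LPS (-1.89 ± 0.35).

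Genes that act downstream of these receptors were not called for genotype. Of the 24 signalling genes (subunits of inhibitory G proteins, arrestins, adenylyl cyclases, PI3-kinase gamma, the microglial potassium channel THIK-1 and others), 0 were called for KO against WT in any comparison of either experiment. Their median log2 fold change was -0.06 in the sex-averaged comparison, beside -0.01 for all genes. For LPS without number 2, 4 of the 24 (16.7%) were called in WT, where 36.3% of all genes were, 2 lower (Gnaz -1.68, Arrb1 -1.21) and 2 higher (Kcnk13 0.68, Vasp 0.59). In KO 5 (20.8%, beside 29.3% of all genes) were called, 3 lower and 2 higher, with Gnaz (-1.42), Pik3r5 (1.08), Vasp (0.83) and Gng2 (-0.54) the largest. Gnaz encodes an inhibitory G protein alpha subunit, Kcnk13 encodes THIK-1, and Vasp encodes an actin regulator that is phosphorylated when cyclic AMP rises.

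Of 9 genes that make or degrade the ligands, 0 were called for genotype (7 tested in the LPS experiment), and their sex-averaged median log2 fold change was -0.16. With LPS their median was -0.43 in WT and -0.20 in KO without number 2, beside -0.01 and -0.05 for all genes. Of the 7 tested, 4 (57.1%) were called in WT, beside 36.3% of all genes, and 2 (28.6%) in KO, beside 29.3%. For LPS without number 2, Nt5e (CD73, which makes adenosine from AMP) fell by 2.44 in WT on the log2 scale. Its levels were low and overlapped, at 0.132 to 10.3 CPM in WT ns and 0.304 to 1.22 CPM in WT LPS. Entpd1 (CD39, which degrades ATP and ADP) fell by 1.59 in WT and by 1.40 in KO, and Enpp1 fell by 0.48 in WT. Panx1, an ATP release channel, rose by 0.82 in WT and by 0.55 in KO. Of the 6 genes of the Mediator kinase module, 0 were called for genotype (sex-averaged median -0.08), and with LPS their median was -0.11 in WT and -0.48 in KO. Without number 2, 2 of the 6 (33.3%) were called for LPS in WT, beside 36.3% of all genes. In KO 2 (33.3%) were called, beside 29.3%, so these shares were near those of all genes. Those called were lower: Cdk19 and Med13l in WT (-0.99 and -0.97), and Cdk19 and Med13 in KO (-0.94 and -0.50). The summed microglial markers (10 genes, without P2ry12) were at 22321 to 38973 CPM in WT ns and 16632 to 25431 CPM in WT LPS, and at 33231 to 52283 CPM in KO ns and 21208 to 27124 CPM in KO LPS, without number 2, so P2ry12 fell by more than this sum with LPS in both genotypes.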

How the data were processed

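Poly(A) RNA of CD11b-positive brain cells was sequenced. The deposited values are raw counts per gene made by the authors. The submitters' processing notes name STAR 2.6.1, featureCounts (Subread), FastQC, DESeq2 and the build GRCm39. Counting options and strand use are not stated in the sources used here. The length listed in the sex table was the whole span of a gene, introns included. For Med12l it was 313048 bases, against 12.763 kb of exons in GRCm38. Counts of the sex table, the Med12l remainder among them, may thus hold intron reads. The tables were made differently: even numbers made up 78.4% to 87.7% of low counts in the sex table, where Med12l held the reads of genes inside it, and 41.0% to 46.2% in the LPS table. They were therefore tested separately.

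Of 57 samples in the labels, 18 animals and 33 libraries had a column, and 6 repeat libraries without one are not analysed here. The counts of 2 libraries (WT LPS 8 and 9) had a scaled chi-square (divided by its degrees of freedom) of 1.86, where the other pairs had 8.32 or more, and were summed, leaving 32 samples. Counts were fitted with edgeR 4.0.16 (R 4.3.3; filterByExpr, TMM, robust quasi-likelihood) over all groups of a table, with the library set (2 sets) as covariate in the LPS table, and p-values were Benjamini-Hochberg adjusted over all genes tested (threshold 0.05). The SE is the fold change divided by the root of F. The spread between samples of a group (coefficient of variation) was 35.3% in the sex table and 46.1% in the LPS table. The second value includes the libraries numbered 2 by label, which went against their labels in WT. In data simulated with these spreads, 80 of 100 genes changed by 1.5 (log2) and 100 of 100 changed by 3 were recovered in the male comparison. For KO after LPS 78 and 100 were recovered. The changed genes were drawn from those outside the lowest levels, all genes of a table had the same spread, and no simulated library went against its label. These shares therefore do not give the recovery for each of the 6 genes, or with the libraries numbered 2 kept by label.

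Ratios were compared by exact permutation tests (SciPy 1.17.1). Genes other than the 6 were named by fixed rules: up to 5 called neighbours within 1 Mb, up to 3 between 1 and 25 Mb, up to 4 per pathway list, and the 3 genes most alike by Pearson r. Members and lists were chosen with earlier results of these data known. Animal numbers were not used as a block in the main fits. Deviations of same-numbered animals of the sex experiment correlated at a mean r of 0.26 (lowest -0.26, 8 pairs), beside -0.06 over 32 pairs with different numbers. In the LPS experiment the mean was 0.13 over 45 same-numbered pairs, beside -0.02 over 147 pairs with different numbers. Same-numbered samples were thus more alike on average, and a block by number was fitted as an alternative. DESeq2 1.42.0, other scalings and filters, single library sets and leaving out libraries were tried as alternatives.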

Additional observations from a re-analysis of the deposited data

Results flagged for a closer look

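Of 48 groups of values examined, 15 had an end value standing far from the rest by Dixon's criterion, which chance does for about 1 group in 20. In the sex experiment, P2ry13 in male WT 5 was at 1203.7 CPM, with the next animal at 1962.8. P2ry14 was at 11.65 CPM in male WT 5 (next 2.66) and at 7.67 CPM in female WT 2 (next 2.56). These are the animals whose neutrophil markers summed to 40498 and 23904 CPM, and the part of that in the P2ry13 and P2ry14 values was not tested beyond leaving both animals out.

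In the LPS experiment, 4 genes stood high in KO ns 6: P2ry12 at 1242.2 CPM (next 743.6), P2ry13 at 1512 (next 755.1), P2ry14 at 7.35 (next 3.09) and Gpr171 at 3.64 (next 1.14). Its microglial markers summed to 52283 CPM (33231 to 38619 in the other KO ns libraries) and its neutrophil markers to 9805 CPM. Both sums are raised by its TMM factor of 0.733, against 1.01 to 1.12 in the other KO ns libraries, and are not given over plain totals. Over the plain library total its P2ry12 was at 910 CPM and its P2ry13 at 1108 CPM. The same 4 stood high in the library labelled WT LPS 6, which is numbered 2: P2ry12 at 12143 CPM (next 4456.9), P2ry13 at 4158.3 (next 1326.5), P2ry14 at 17.6 (next 2.88) and Gpr171 at 5.63 (next 2.16). In KO LPS 5, also numbered 2, P2ry12 was at 154 CPM (next 111.4), P2ry13 at 593.3 (next 239.7) and P2ry14 at 3.92 (next 2.04). Igsf10 was at 4.40 CPM in KO ns 5 (next 2.64), which is numbered 2 as well.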

How the results depend on the processing

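In the sex experiment the number of the 6 genes called stayed at 2 to 3 in males, 3 in females and 3 to 4 averaged over all alternatives, the replicate block (number of the title) included. The sign of Gpr171 changed when 1 animal was left out, from -0.042 to 0.78 in females and from -0.28 to 0.14 averaged, and that of the sex difference of P2ry13 from -0.018 to 0.26.

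In the LPS experiment the libraries numbered 2 mattered most. For KO at ns (0 called by label), DESeq2 called 1 gene, and leaving out number 2 called 1, also with the replicate block or RLE scaling, against 2 with DESeq2 or set 1 alone, 0 in set 2 and 1 to 2 with 1 more library left out. For KO after LPS (2 called), DESeq2 called 3, both by label (3 lower) and without number 2 (2 lower, 1 higher), 1 was called with no filter, the replicate block, WT LPS 8 and 9 apart or no set covariate, and 0 with only the groups compared, set 1 alone or set 2 alone. With number 2 out it was 1, also with the replicate block, RLE scaling or set 1 alone, but 0 in set 2 and 1 to 2 with 1 more library out. For LPS in WT (0 called), leaving out number 2 called 4, as did the block, DESeq2, RLE scaling or set 1 alone with it, against 2 in set 2 and 3 to 5 with 1 more library out. For LPS in KO (3 called), set 2 alone called 0 and, without number 2, 1, while DESeq2, the replicate block and leaving out number 2 each called 4, and no filter and set 1 alone called 2. The difference in log2 ratio for LPS in WT became 1.26 without number 2.

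Values that changed sign were these. In set 2 without number 2, KO at ns gave 0.015 for P2ry14, 0.16 for Gpr171 and -0.058 for Med12l. In set 1 without number 2, P2ry14 was at 0.30 for KO after LPS and 0.66 for LPS in KO (0.42 with number 2), and P2ry12 at 0.54 for the genotype difference of the LPS effect. For LPS in WT, set 2 alone gave 0.13 for P2ry13 and 0.77 for P2ry14, which was 0.018 with DESeq2, 0.023 with RLE scaling and 0.32 with no set covariate. With number 2 left out and the replicate block, Gpr171 was at -0.10 for LPS in WT and the genotype difference at 0.16 for P2ry12. That difference for Med12l, -0.01 by label, was 0.024 with no filter, 0.054 with the replicate block, 0.041 with WT LPS 8 and 9 apart and 0.29 in set 2. Without number 2 it was 0.73, and then 0.38 in set 1, 1.05 in set 2, 0.76 with the block, 0.69 with DESeq2 and 0.69 with RLE scaling. With number 2 and 1 more library left out it ran from 0.57 to 0.83 for Med12l and from -0.11 to 0.25 for P2ry12. In the same way Gpr171 for LPS in WT ran from -0.12 to 0.17, Med12l for KO at ns from -0.028 to 0.16, P2ry14 for KO after LPS from -0.30 to 0.011 and P2ry14 for LPS in KO from -0.64 to 0.34. The cause of these changes was not tested. P2ry14 and Gpr171 had at most 252 reads per LPS sample, and the part of depth was not tested.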
